A study of Glycine max with 6 samples.

Results

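The vegetative storage protein genes of soybean (Glycine max) that carry the deposited descriptions stem 28 kDa glycoprotein precursor and stem 31 kDa glycoprotein precursor were examined in trifoliolate leaves. The members were taken by gene identifier, Glyma07g01730.1 and Glyma08g21410.1, and are 2 of the 36827 genes in the deposited tables; both passed the filter on low counts and were among the 26272 genes tested. RNA had been sequenced from 3 libraries labelled GmRAV1-ox, with GmRAV1 given as their genotype, and from 3 libraries labelled DN50, with wild type given as theirs. All 6 came from leaves of plants whose age is labelled as day 30 of germination. The labels name no promoter, transformation event or pooling of plants, and do not say whether the 3 libraries of a group came from separate plants, so each p-value reflects no more than the spread among these libraries, which may be technical.

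Vegetative storage proteins are glycoproteins that soybean leaves, stems and pods deposit in the vacuole, chiefly in the paraveinal mesophyll and the epidermis, and draw down again as a source of amino acids. They belong to the haloacid dehalogenase-type acid phosphatases, although storage rather than phosphatase activity is their known role in soybean. Their genes are known to respond to jasmonate and wounding, to sugars and nitrogen supply, and to the loss of sinks such as pods, while phosphate acts against their transcription. RAV proteins are plant transcription factors that join an AP2 domain to a B3 domain.

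The deposited annotation and RefSeq describe the pair alike. RefSeq names Glyma07g01730.1 VSPA, with the synonym VSP25, and gives VSP27 and VSPB as synonyms of Glyma08g21410.1, when accessions are matched without their version. Both have a coding length of 765 bases in the files. VSPA lies on chromosome 7 and VSPB on chromosome 8 of the RefSeq assembly Glycine_max_v4.0, which was used for names and neighbours only because the build behind the files is not given in the sources used here. The gene orders around them are alike: shortly before each lie genes described as 6-phosphofructokinase 3-like and mitochondrial-processing peptidase subunit alpha-like. The deposited GO terms of the pair are the same, and among them are nutrient reservoir activity, carried by 60 genes of the table, and acid phosphatase activity, carried by 61. The pair are the only 2 genes of the table that carry both terms.

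The 6 libraries held between 7208496 and 7684540 estimated counts. Of 4 transcripts described as RAV factors, 3 were tested and none was called different between the groups: Glyma01g22260.1 had 20.8, 18.8 and 27.8 FPKM (fragments per kilobase of gene length, scaled to library depth) in the libraries labelled GmRAV1-ox and 17.3, 17.6 and 28.2 FPKM in the DN50 libraries, with a log2 fold change of -0.05 (edgeR quasi-likelihood test, adjusted p = 0.928). Adjusted p was 0.673 and 0.961 for the other tested genes, Glyma02g11060.1 and Glyma10g34760.1. A low one that was not tested, Glyma20g32730.1, had 1.69, 3.28 and 0.28 FPKM in the libraries labelled GmRAV1-ox and 0.13, 0.56 and 0.41 FPKM in the DN50 libraries. The groups are therefore named by their labels throughout. GmRAV1-ox replicate 3 stood apart from its group: its mean correlation across genes (log2 CPM) was 0.895 with the other libraries labelled GmRAV1-ox and 0.933 with the DN50 libraries. Calls without that library are given beside the counts of calls. That fit filtered the genes anew and tested 27657 of them. Its calls can therefore include list members outside the tested numbers given for each list. Transcripts of leaf mesophyll, 30 genes of photosynthesis, summed to between 104970 and 145211 FPKM in the libraries labelled GmRAV1-ox and to between 105431 and 143731 FPKM in the DN50 libraries, so leaf transcripts were abundant in every library. Of these 30 genes, 13 had every library labelled GmRAV1-ox below every DN50 library on CPM (counts scaled to library depth), against 13.1% of all tested genes, and their median log2 fold change was -0.60. EdgeR called none of them, with 0 higher and 5 lower at an unadjusted p under 0.05, DESeq2 called 2 lower, and edgeR without GmRAV1-ox replicate 3 called 5 lower. The shares of all tested genes that were lower by these 3 measures were 10.7%, 3.96% and 9.66%, in the same order.

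Transcripts of both storage protein genes were most abundant in libraries labelled GmRAV1-ox replicates 1 and 2. Mean levels were 26.1-fold (Glyma07g01730.1) and 26.9-fold (Glyma08g21410.1) those of the DN50 libraries, but the spread within each group was wide and neither gene passed the adjusted threshold of 0.05. Of all tested genes, 0.122% (32) passed it higher in the libraries labelled GmRAV1-ox and 0.579% (152) lower. In bulk leaf RNA, fewer cells of a type and less RNA per cell cannot be told apart, and this holds for each level that follows.

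Glyma07g01730.1, the VSPA transcript, was the more abundant member in every library. It had 1387, 2629 and 127 FPKM in the libraries labelled GmRAV1-ox replicates 1, 2 and 3, against 17.5, 127 and 13.6 FPKM in DN50 replicates 1, 2 and 3. GmRAV1-ox replicates 1 and 2 were far above the rest, while GmRAV1-ox replicate 3 and DN50 replicate 2 were level with each other, so the groups overlapped and 8 of the 9 cross-group pairs had the higher value in the library labelled GmRAV1-ox. Behind these levels lay 7152, 13391 and 650 estimated counts in the libraries labelled GmRAV1-ox and 95, 667 and 72 in the DN50 libraries. The exact Poisson 95% intervals, which cover counting error only, ran from 601 to 702 counts in GmRAV1-ox replicate 3 and from 617 to 720 in DN50 replicate 2. Counting error was therefore small against the distance between libraries of 1 group.

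Ranked by FPKM within each library, Glyma07g01730.1 stood 82nd, 21st and 1153rd among all genes in the libraries labelled GmRAV1-ox, against 7176th, 1134th and 10358th in the DN50 libraries. The transcript was thus among the most abundant of the leaf in GmRAV1-ox replicate 2 and a middling one in DN50 replicate 3. Its mean was 1381 ± 1251 FPKM in the libraries labelled GmRAV1-ox and 52.8 ± 64.6 FPKM in the DN50 libraries (SD, n = 3 each). The fitted log2 fold change was 4.46 with a standard error of 1.34 and a 95% interval of 1.22 to 7.69 (edgeR quasi-likelihood test, Benjamini-Hochberg adjusted p = 0.15).

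Glyma08g21410.1, the VSPB transcript, was likewise highest in GmRAV1-ox replicates 2 and 1, at a far lower level. It had 46.5, 79.5 and 6.06 FPKM in the libraries labelled GmRAV1-ox and 0.74, 2.67 and 1.51 FPKM in the DN50 libraries. Here the groups did not overlap, since the lowest library labelled GmRAV1-ox lay above the highest DN50 library. Among all tested genes 12.9% had every library labelled GmRAV1-ox above every DN50 library on CPM, so a separation of this kind was common. The estimated counts were 240, 405 and 31 in the libraries labelled GmRAV1-ox and 4, 14 and 8 in the DN50 libraries. In DN50 replicate 1 the 4 counts had an exact Poisson 95% interval of 1.09 to 10.2, and in DN50 replicate 3 the 8 counts had one of 3.45 to 15.8, so the order of these libraries was not detectable at this depth.

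By rank of FPKM, Glyma08g21410.1 stood 3381st, 2079th and 16575th in the libraries labelled GmRAV1-ox and 27133rd, 22442nd and 25493rd in the DN50 libraries. Means were 44.0 ± 36.8 FPKM in the libraries labelled GmRAV1-ox and 1.64 ± 0.972 FPKM in the DN50 libraries (SD, n = 3 each). The fitted log2 fold change was 4.49 with a standard error of 0.96 and a 95% interval of 2.19 to 6.79 (edgeR adjusted p = 0.0981). This interval was narrower than that of Glyma07g01730.1, whose libraries also lay further apart within each group. At an unadjusted p under 0.05 both members were among the 10.6% of tested genes that were higher, while 10.7% were lower.

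**Figure D1:**
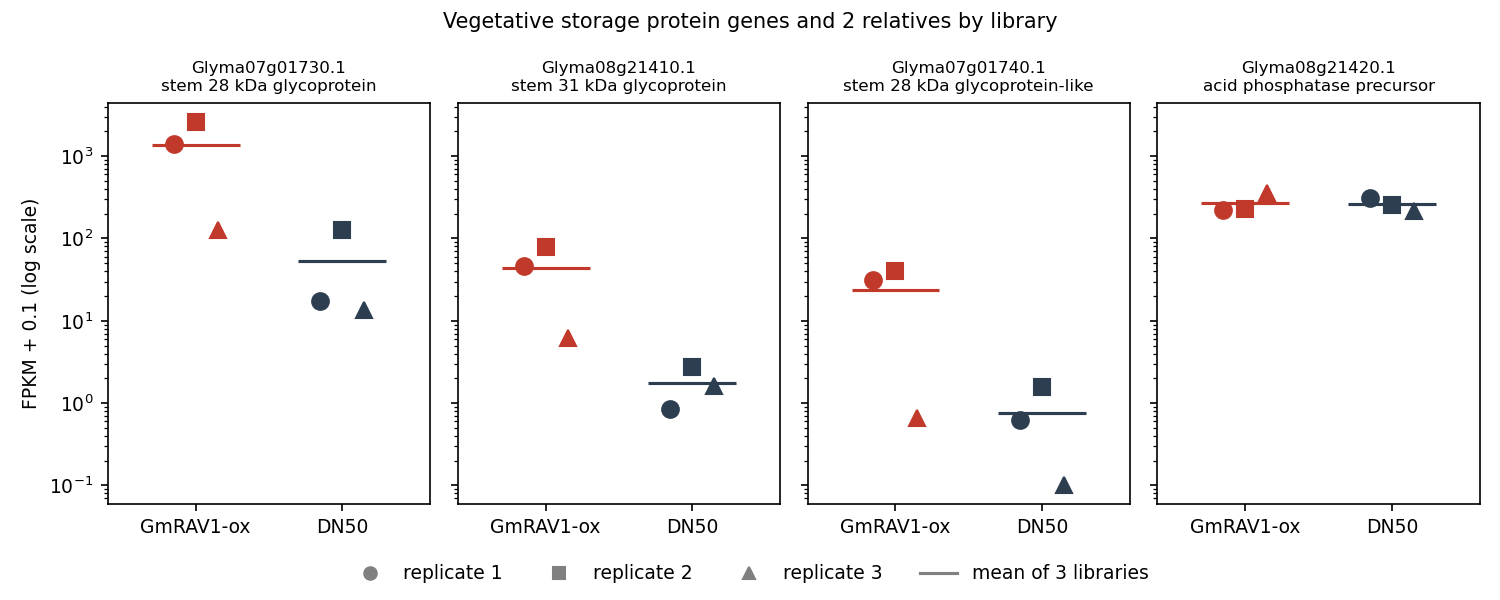
FPKM plus 0.1 (log axis) of both vegetative storage protein genes, of the neighbouring stem 28 kDa glycoprotein-like gene and of the neighbouring acid phosphatase gene, in the 3 libraries labelled GmRAV1-ox and the 3 DN50 libraries, with symbols for replicates and bars for group means. Glyma07g01730.1 reached 2629 FPKM in GmRAV1-ox replicate 2 and was 13.6 FPKM in DN50 replicate 3. GmRAV1-ox replicate 3 was the lowest of its group for the storage protein genes and the highest for Glyma08g21420.1.

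The call for both genes depended on the test, and that for Glyma08g21410.1 also on 1 library. DESeq2, which called 2.50% of all tested genes higher and 3.96% lower, gave log2 fold changes of 4.47 for Glyma07g01730.1 (DESeq2 adjusted p = 0.0158) and 4.52 for Glyma08g21410.1 (DESeq2 adjusted p = 2.48e-07). Without GmRAV1-ox replicate 3, edgeR gave 4.97 for both genes, with an adjusted p of 0.0518 for Glyma07g01730.1 and of 0.00119 for Glyma08g21410.1. Without that library 8.62% of 27657 genes were called higher and 9.66% lower. Without DN50 replicate 2 the log2 fold change of Glyma07g01730.1 was 6.15 (edgeR adjusted p = 0.105), and without GmRAV1-ox replicate 2 it was 3.67 (edgeR adjusted p = 0.424). A replicate block, which fits same-numbered libraries as pairs, gave 4.43 for Glyma07g01730.1 (edgeR adjusted p = 0.0116). For Glyma08g21410.1 it gave 4.26 (edgeR adjusted p = 0.0174). With that block 682 of 26272 genes were called higher and 939 lower, and whether the numbers pair the libraries is not known. The direction was the same in all 16 alternatives tried for both members.

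**Figure D2:**
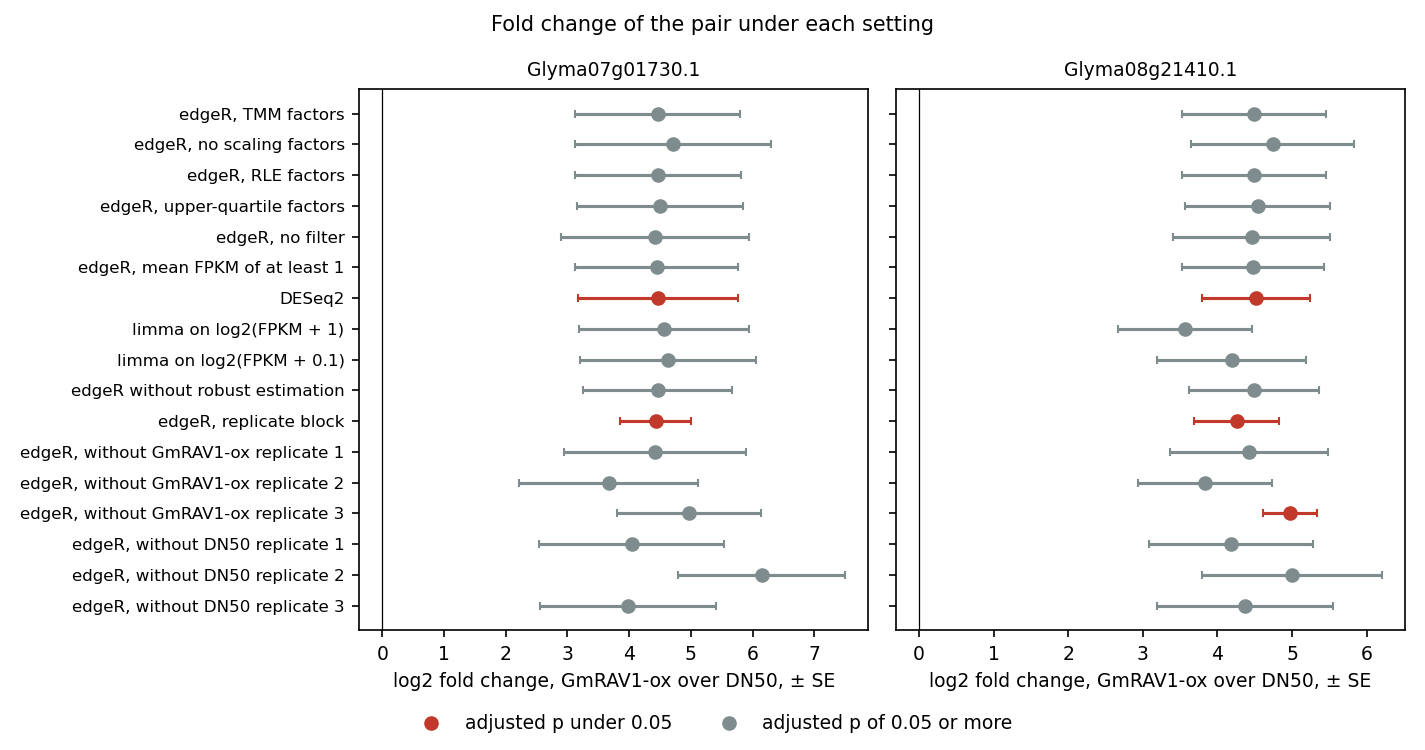
Log2 fold change of each member, libraries labelled GmRAV1-ox over DN50, with its standard error, under the edgeR test used in the text (top) and 16 alternatives; red points passed an adjusted p of 0.05. Glyma07g01730.1 ranged from 3.67 to 6.15 and Glyma08g21410.1 from 3.57 to 5.0, with 2 red points for Glyma07g01730.1 and 3 for Glyma08g21410.1.

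In size the fold changes of the pair were near the top of the whole table. Glyma08g21410.1 ranked 15th and Glyma07g01730.1 18th by fitted log2 fold change among 26272 tested genes. Only 23 genes (0.0875%) had a fitted log2 fold change of 4 or more, and 1 of these 23 passed the adjusted threshold. On CPM, 12 of the 23 had every library labelled GmRAV1-ox above every DN50 library, against 12.9% of all tested genes. A large fold change in these same libraries favours such a separation, so that count adds nothing to the fold changes. The largest fitted value was 7.48, for Glyma11g27480.1, chosen after its values were seen, an asparagine synthetase that makes the nitrogen-carrying amide asparagine, and which had 1.76, 11.2 and 81.9 FPKM in the libraries labelled GmRAV1-ox and 0.40, 0.08 and 0.00 FPKM in the DN50 libraries (edgeR adjusted p = 0.123). Its high library was GmRAV1-ox replicate 3, where both storage protein genes were lowest of their group.

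**Figure D3:**
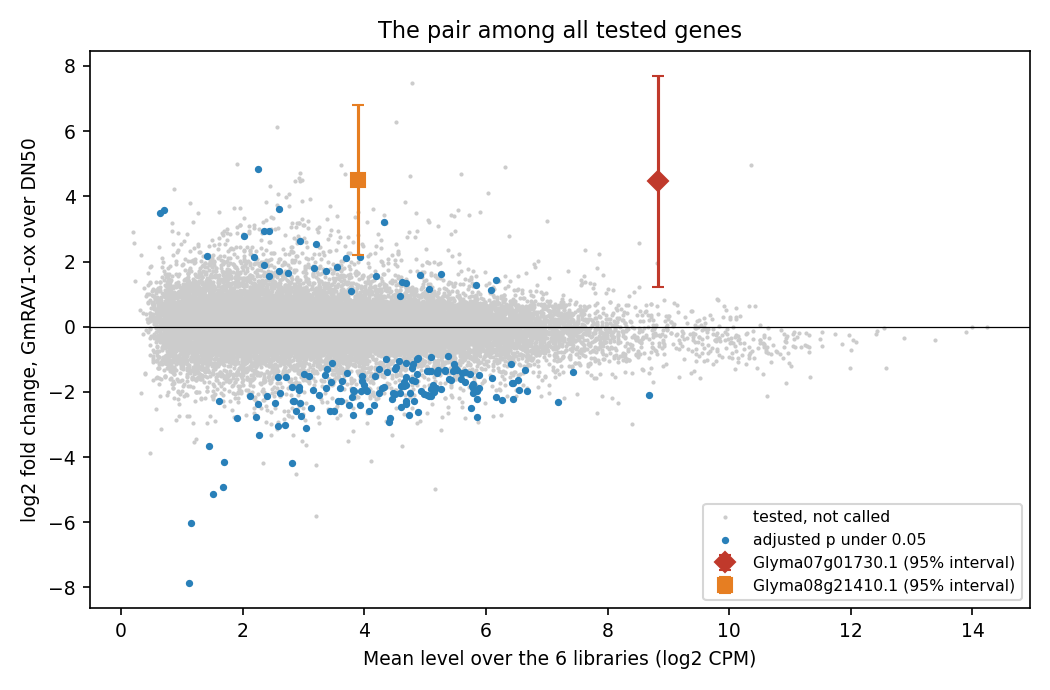
Log2 fold change, libraries labelled GmRAV1-ox over DN50, against mean log2 CPM for all 26272 tested genes; blue points passed an adjusted p of 0.05, and the diamond and the square are the storage protein genes with 95% intervals. The intervals of the pair, 1.22 to 7.69 and 2.19 to 6.79, lie above 0, and neither gene passed after adjustment.

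The pair also stood out by its variation. The standard deviation of log2 CPM over the 6 libraries was 3.00 for Glyma07g01730.1 and 2.40 for Glyma08g21410.1, ranks 25 and 70 of 26272, against a median of 0.35 over all tested genes. Within the libraries labelled GmRAV1-ox it was 2.17 and 1.78, against a median of 0.28, and within the DN50 libraries 1.75 and 0.68, against a median of 0.26. Between the highest and the lowest library of 1 group, Glyma07g01730.1 differed 20.7-fold among libraries labelled GmRAV1-ox and 9.36-fold among DN50 libraries. The matching figures for Glyma08g21410.1 were 13.1-fold and 3.61-fold. Across all 6 libraries the ranges were 193-fold and 107-fold. The first principal component of log2 CPM over all tested genes, the main axis of variation among the libraries, held 62.6% of the variance. It placed GmRAV1-ox replicates 1, 2 and 3 at -71.6, -100 and 16.5, and DN50 replicates 1, 2 and 3 at 64, 10.3 and 81. The levels of Glyma07g01730.1 followed nearly this order, so the order was not particular to the storage protein genes.

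The members varied together over the libraries. Their log2 CPM had a Pearson r of 0.968 over the 6 libraries, which share their depth and scaling between the genes, and of 0.909 once each group's mean was subtracted. Summed, the pair had 1433, 2709 and 133 FPKM in the libraries labelled GmRAV1-ox and 18.2, 130 and 15.1 FPKM in the DN50 libraries. The sums did not overlap, by a margin of 133 FPKM in GmRAV1-ox replicate 3 to 130 FPKM in DN50 replicate 2. The pair took 0.101, 0.191 and 0.00943% of all counts in the libraries labelled GmRAV1-ox and 0.00129, 0.00921 and 0.00107% in the DN50 libraries. The libraries labelled GmRAV1-ox exceeded the DN50 libraries by 4.42 in mean log2 summed CPM (exact permutation test, two-sided, p = 0.1, the smallest that 3 against 3 libraries allow).

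The proportion between the members varied less than their levels. The FPKM of Glyma07g01730.1 was 29.8, 33.1 and 21.0 times that of Glyma08g21410.1 in the libraries labelled GmRAV1-ox, against 23.6, 47.7 and 9.01 times in the DN50 libraries. The groups overlapped, and the highest and the lowest ratio were both in DN50 libraries, where Glyma08g21410.1 rested on 14 and 8 counts. The difference of mean log2 ratio was 0.34 (exact permutation test, two-sided, p = 0.8). With 1 added to each FPKM the difference was 1.00 (exact permutation p = 0.4), and without DN50 replicate 3 it was -0.29 (exact permutation p = 0.6). VSPB thus made up 3.25, 2.94 and 4.55% of the FPKM of the pair in the libraries labelled GmRAV1-ox and 4.07, 2.05 and 9.99% in the DN50 libraries.

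Counts of both members were whole numbers in all libraries, whereas between 29.6 and 30.5% of the counts over all genes were not, depending on the library. Reads that fit more than 1 gene equally well may still have been assigned to either member, since the counting is not described in the sources used here.

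The gene next to VSPA on chromosome 7, Glyma07g01740.1 (stem 28 kDa glycoprotein-like), had the same pattern at a low level. It had 30.9, 39.7 and 0.56 FPKM in the libraries labelled GmRAV1-ox and 0.53, 1.47 and 0.00 FPKM in the DN50 libraries, from 166, 211 and 3 counts and from 3, 8 and 0 counts. GmRAV1-ox replicate 3 lay among the DN50 libraries here, so the groups overlapped. The gene did not pass the filter on low counts. With no filter its log2 fold change was 4.83, with a 95% interval of 0.51 to 9.15 (edgeR adjusted p = 0.24), and without GmRAV1-ox replicate 3 it was 5.41 (edgeR adjusted p = 0.00208).

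The gene next to VSPB on chromosome 8, Glyma08g21420.1, named for its place and chosen after its values were seen, is described as an acid phosphatase precursor. Its levels were 224, 228 and 357 FPKM in the libraries labelled GmRAV1-ox and 314, 252 and 214 FPKM in the DN50 libraries. The groups overlapped, and GmRAV1-ox replicate 3, the lowest of its group for the storage protein genes, was the highest here. The fitted ratio was 0.917, with a 95% interval of 0.552 to 1.52 (edgeR adjusted p = 0.848). It was more abundant than VSPB in every library and more abundant than VSPA in GmRAV1-ox replicate 3 and in all DN50 libraries.

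Of 8 genes described as acid phosphatase 1-like or stem glycoprotein-like, Glyma07g01740.1 among them, 3 were tested. None passed the adjusted threshold by edgeR, 1 did by DESeq2, and 1 had an unadjusted p under 0.05 by edgeR. The gene with the unadjusted p under 0.05, Glyma03g32360.1 (acid phosphatase 1-like), had 14.9, 13.4 and 10.2 FPKM in the libraries labelled GmRAV1-ox and 3.70, 2.97 and 1.21 FPKM in the DN50 libraries. The groups did not overlap. Its log2 fold change was 2.07 with a standard error of 0.40 (edgeR adjusted p = 0.0691), and 6 of 16 alternatives called it. Without GmRAV1-ox replicate 3 it was 2.13 (edgeR adjusted p = 0.0103), and this gene and Glyma07g01740.1 were then the 2 calls of the list. Some of its counts were not whole numbers, so reads may be shared with a similar gene. Glyma07g15110.1 had 84.1, 73.0 and 35.4 FPKM in the libraries labelled GmRAV1-ox and 24.2, 53.3 and 19.6 FPKM in the DN50 libraries (log2 fold change 0.78, edgeR adjusted p = 0.335). The third, Glyma08g24840.1, had 14.5, 17.9 and 17.1 FPKM in the libraries labelled GmRAV1-ox and 12.0, 14.5 and 18.7 FPKM in the DN50 libraries (log2 fold change -0.03, edgeR adjusted p = 0.935).

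Likeness to the pair was measured as Pearson r of log2 CPM with the mean of the pair over the 6 libraries, among 12227 tested genes with a description and a mean of at least 5 FPKM. Among these, 2.73% (334) reached r of 0.95 and 4.67% (571) reached r of -0.95, so a close match in pattern was common. Each r rests on 6 libraries, and the part of their small number in these shares was not tested. The most like genes were Glyma01g38690.1 (STS14 protein-like, r = 0.998), Glyma02g01940.1 (60S ribosomal protein L19-1-like, r = 0.998), Glyma07g39140.2 (glucan endo-1,3-beta-glucosidase 1-like, r = 0.997), Glyma12g07690.1 (interactor of constitutive active ROPs 3, r = 0.996) and Glyma10g04830.1 (GDSL esterase/lipase, r = 0.995). Of these, Glyma01g38690.1 came near the pair in size, with 38.6, 56.9 and 3.83 FPKM in the libraries labelled GmRAV1-ox and 0.28, 2.88 and 0.57 FPKM in the DN50 libraries. The most opposite were Glyma08g20770.1 (ABC transporter C family member 8-like, r = -0.999), Glyma02g11110.1 (chloroplast kinase STN7-like, r = -0.999) and Glyma16g01470.1 (phosphoinositide phosphatase SAC2-like, r = -0.998). Glyma02g11110.1 had 12.7, 12.1 and 29.9 FPKM in the libraries labelled GmRAV1-ox and 64.3, 35.8 and 76.3 FPKM in the DN50 libraries.

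**Figure D4:**
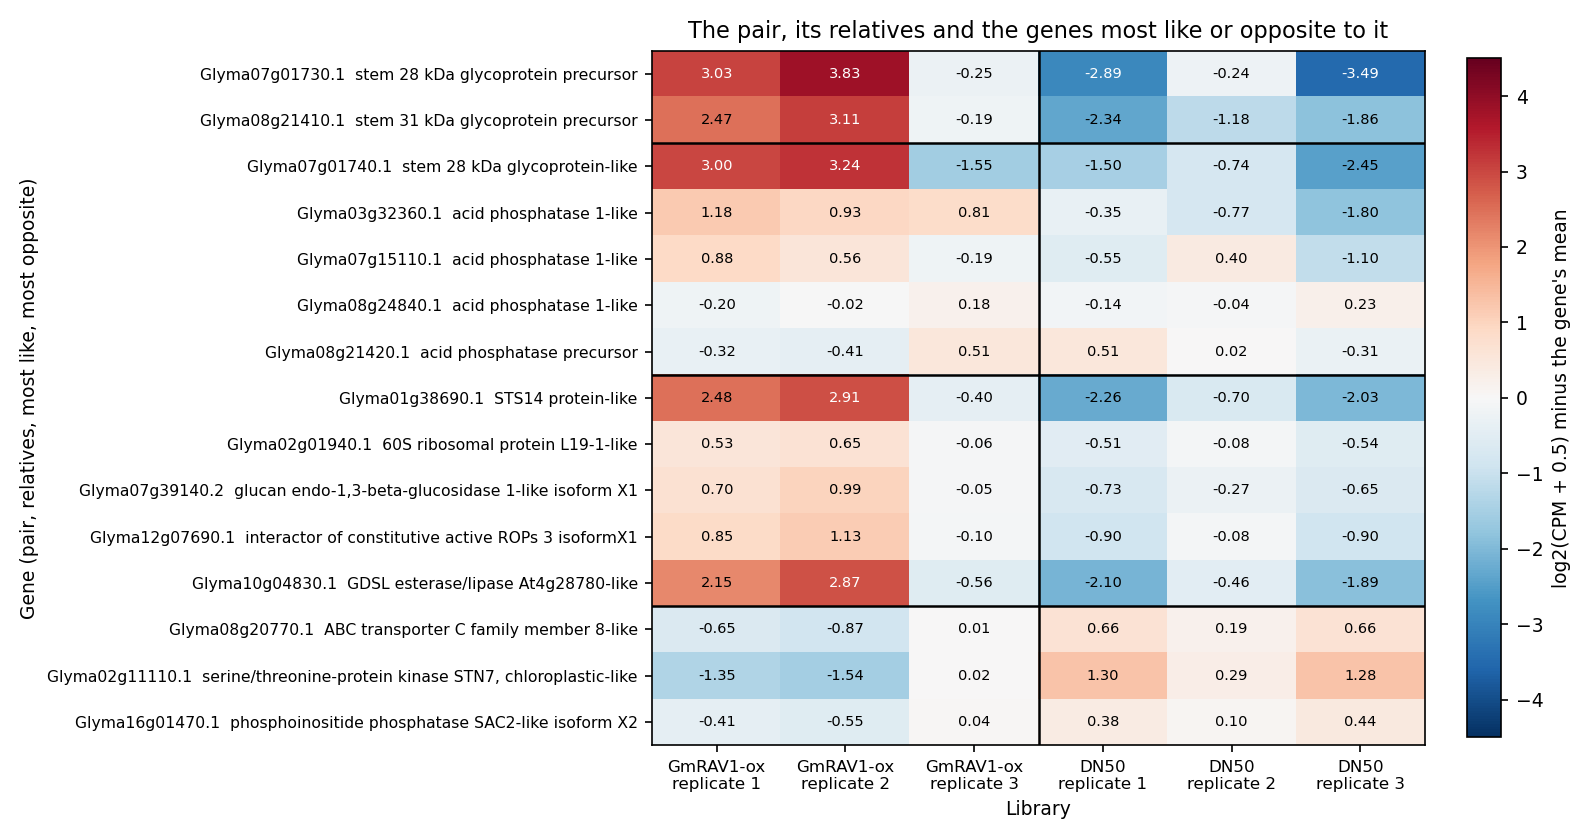
Log2(CPM + 0.5) minus the gene's own mean over the 6 libraries, for the storage protein pair, their relatives, the 5 genes most like and the 3 most opposite to the pair; the libraries labelled GmRAV1-ox are on the left and the DN50 libraries on the right. GmRAV1-ox replicates 1 and 2 carry the high values of the pair, and GmRAV1-ox replicate 3 lies near the mean for both members. DN50 replicate 2 lies near the mean for Glyma07g01730.1 (-0.24) and below it for Glyma08g21410.1 (-1.18).

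Other gene groups known to act on or beside the storage proteins were set next to the pair by counts, with the median log2 fold change of all tested genes being 0.01. For these lists and the tissue markers, the background is the share of all tested genes. It was 10.6% higher and 10.7% lower at an unadjusted edgeR p under 0.05, and 2.50% and 3.96% with DESeq2. Without GmRAV1-ox replicate 3, edgeR called 8.62% higher and 9.66% lower. Jasmonate synthesis genes (15 tested of 22) had no call, a median of -0.32 and summed levels of 503, 411 and 386 FPKM in the libraries labelled GmRAV1-ox and 412, 529 and 528 FPKM in the DN50 libraries. Jasmonate perception and repressor genes (20 tested of 29) had no call and a median of 0.01, with sums of 413, 380 and 325 FPKM in the libraries labelled GmRAV1-ox and 342, 454 and 461 FPKM in the DN50 libraries. At an unadjusted p under 0.05, edgeR gave 0 higher and 2 lower in the synthesis list, and 1 higher and 1 lower in the perception list. DESeq2 called none in either, and without GmRAV1-ox replicate 3 edgeR called 0 higher and 1 lower of the synthesis list and 1 higher and 2 lower of the perception list. Neither sum followed the library order of the storage protein pair.

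Lipoxygenases, some of which also accumulate in soybean leaf vacuoles as storage proteins, had no call among 19 tested of 34 (1 higher and 7 lower at an unadjusted p under 0.05), and their summed level was highest in the same libraries as the pair: 1480, 1604 and 620 FPKM in those labelled GmRAV1-ox, against 727, 888 and 692 FPKM in the DN50 libraries. The most abundant of them was Glyma15g03050.1 (lipoxygenase L-5), with 615, 680 and 194 FPKM in the libraries labelled GmRAV1-ox and 237, 280 and 183 FPKM in the DN50 libraries (log2 fold change 0.85, edgeR adjusted p = 0.286). Leaving out GmRAV1-ox replicate 3 gave 1.19 for this gene (edgeR adjusted p = 0.0197). Glyma07g03910.1 (lipoxygenase-9), chosen after its values were seen, had the pattern of the pair at a low level, with 19.1, 27.7 and 0.65 FPKM in the libraries labelled GmRAV1-ox and 0.36, 3.76 and 0.26 FPKM in the DN50 libraries (log2 fold change 3.19, edgeR adjusted p = 0.243). The list did not share this direction, as its median log2 fold change was 0.06. Glyma10g29490.1 (linoleate 9S-lipoxygenase 5-like), also chosen after its values were seen, went the other way. It had 6.78, 4.19 and 4.83 FPKM in the libraries labelled GmRAV1-ox and 10.8, 8.96 and 19.1 FPKM in the DN50 libraries (log2 fold change -1.46, edgeR adjusted p = 0.0793). Protease inhibitors and polyphenol oxidases of the wound response had no call among 16 tested of 30, with 2 higher and 2 lower at an unadjusted p under 0.05. Their median was 0.49, and their summed level was highest in DN50 replicate 2 (1289 FPKM). Glyma08g45610.1 (trypsin inhibitor) had the pattern of the pair (log2 fold change 2.94, edgeR adjusted p = 0.146). Glyma14g04260.1 (multicystatin) was instead highest in DN50 replicate 2, at 263 FPKM. Both were chosen after their values were seen. DESeq2 called 1 lipoxygenase higher and 3 lower, and 1 gene of the wound response higher and 1 lower. Without GmRAV1-ox replicate 3, edgeR called 3 lipoxygenases higher and 5 lower, and 4 wound response genes higher and 3 lower.

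Nitrogen assimilation genes (44 tested of 53) had no call, a median of 0.22 and 5 higher against 6 lower at an unadjusted p under 0.05. Of all tested genes, 10.6% were higher and 10.7% lower at that p. Of the genes for vacuolar channels, sorting receptors and processing enzymes, 19 of 25 were tested with no call, 2 higher and 6 lower at an unadjusted p under 0.05. Sums were 524, 450 and 565 FPKM in the libraries labelled GmRAV1-ox and 683, 694 and 1982 FPKM in the DN50 libraries, so every library labelled GmRAV1-ox lay below every DN50 library. That separation rested on Glyma17g34900.1 (vacuolar-processing enzyme-like), which had 62.0, 82.5 and 32.6 FPKM in the libraries labelled GmRAV1-ox and 125, 175 and 979 FPKM in the DN50 libraries. Without it the sums were 462, 367 and 532 FPKM in the libraries labelled GmRAV1-ox and 558, 519 and 1002 FPKM in the DN50 libraries, which overlap, a sum added after the data were seen. The median log2 fold change of the list was -0.50. Of the aquaporins, Glyma13g43250.1 (TIP2-1, log2 fold change 3.99, edgeR adjusted p = 0.0635) and Glyma19g04450.1 (TIP2-1-like, 2.99, edgeR adjusted p = 0.141) went the other way. Both were chosen after their values were seen. Each was higher in every library labelled GmRAV1-ox than in any DN50 library. DESeq2 called 3 nitrogen genes higher and 4 lower, and 2 vacuolar genes higher and 4 lower, against 2.50% and 3.96% of all tested genes. Without GmRAV1-ox replicate 3, edgeR called 4 nitrogen genes higher and 9 lower, and 1 vacuolar gene higher and 6 lower. Seed storage protein genes had 1 call among 5 tested, Glyma17g01990.1 (basic 7S globulin 2-like), which fell by 1.96 on the log2 scale (edgeR adjusted p = 0.0357). The list as a whole did not fall, with a median of 0.19 and 1 higher and 1 lower at an unadjusted p under 0.05. Its 19 matched genes summed to 142, 146 and 142 FPKM in the libraries labelled GmRAV1-ox. In the DN50 libraries the sums were 95.9, 111 and 69.8 FPKM, all lower.

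In the lists for phosphate, sugars and proteases, edgeR called 1, 3 and 2 genes. Phosphate sensing, transport and scavenging genes had 1 call among 40 tested, Glyma09g39920.1, an SPX domain gene of the phosphate response, which fell by 2.92 (edgeR adjusted p = 0.0179). Among 60 tested sucrose and starch genes, Glyma11g04210.1 (beta-amylase 3) rose by 1.62 (edgeR adjusted p = 0.0475), while Glyma06g01380.1 (large subunit of ADP-glucose pyrophosphorylase, the committing enzyme of starch synthesis) fell by 2.27 (edgeR adjusted p = 0.0320) and Glyma10g36200.1 (sucrose transport) fell by 1.87 (edgeR adjusted p = 0.0435). Among 30 tested genes of proteases and chlorophyll breakdown, Glyma04g38690.1 (SAG101-like) fell by 2.13 (edgeR adjusted p = 0.0363) and Glyma11g19800.1 (pheophorbide a oxygenase, an enzyme of chlorophyll breakdown) fell by 1.32 (edgeR adjusted p = 0.0417). These called genes, 7 with the seed storage gene, separated the groups with GmRAV1-ox replicate 3 on the side of its own label, as Glyma08g21410.1 did and Glyma07g01730.1 did not. A call from these same libraries favours genes that separate the groups, so their separation adds nothing to the calls. Each of these calls, like all others by edgeR, was lost when GmRAV1-ox replicate 1 or 2 or DN50 replicate 1 or 3 was left out. DESeq2 called 3 phosphate genes higher and 5 lower, 1 sugar gene higher and 11 lower, and 0 protease and chlorophyll breakdown genes higher and 4 lower. At an unadjusted p under 0.05, edgeR gave 6 higher and 9 lower, 2 higher and 15 lower, and 0 higher and 12 lower in these lists, in the same order. Without GmRAV1-ox replicate 3, where 8.62% of all genes tested were higher and 9.66% lower, edgeR called 4 phosphate genes higher and 8 lower, 7 sugar genes higher and 16 lower, and 0 protease and chlorophyll breakdown genes higher and 11 lower.

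**Figure D5:**
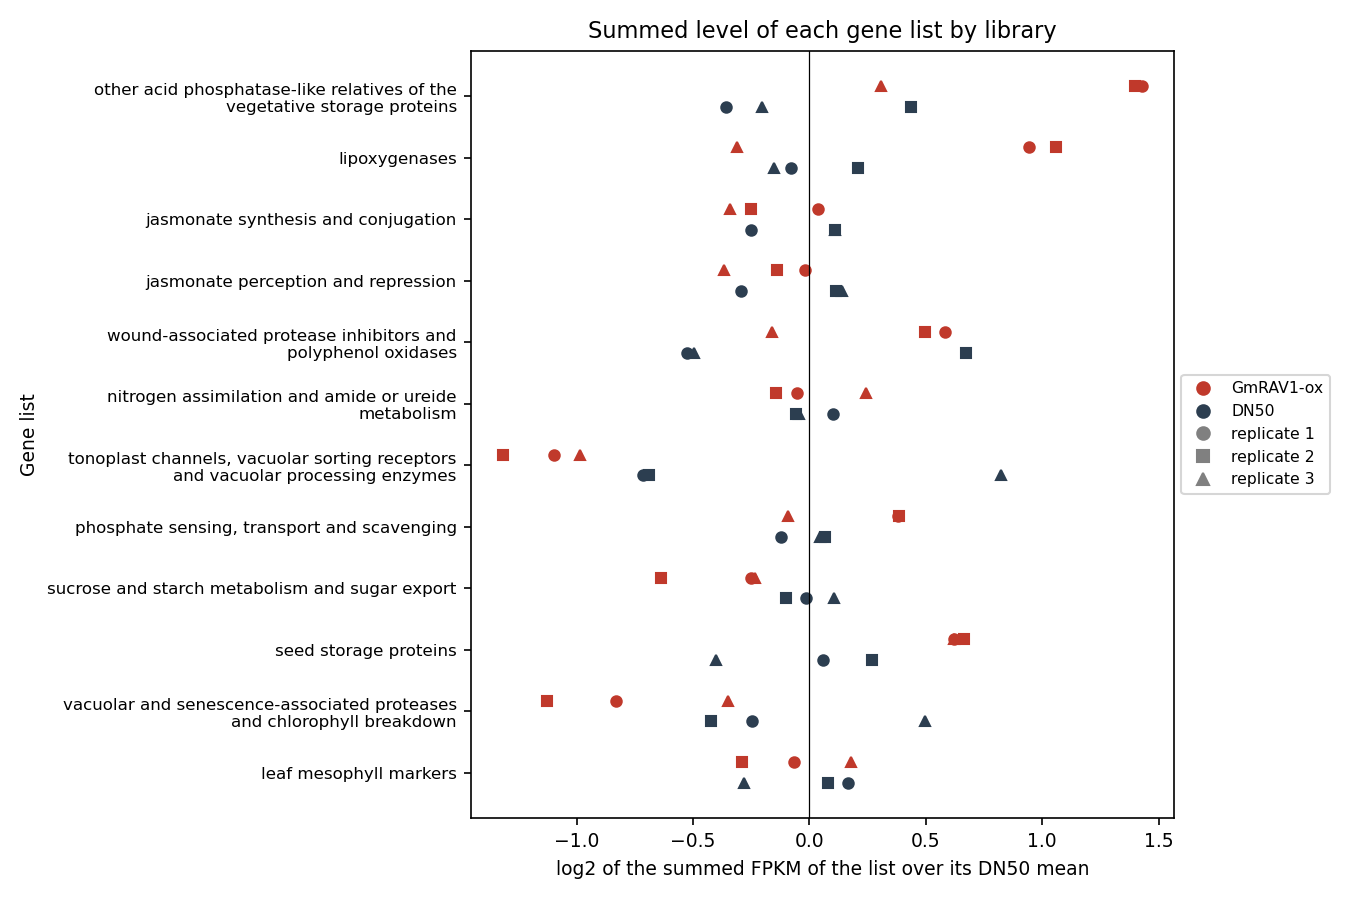
Log2 of the summed FPKM of each gene list over that list's mean in the DN50 libraries, with red for libraries labelled GmRAV1-ox, dark blue for DN50 and symbols for replicates. Lipoxygenases and, as a separate list, the acid phosphatase-like relatives of the storage proteins are high in GmRAV1-ox replicates 1 and 2. Jasmonate genes overlap between groups. The sum of the vacuolar genes is lower in every library labelled GmRAV1-ox than in any DN50 library, a separation that ends without Glyma17g34900.1. The sum of the sucrose and starch genes is likewise lower, and that of the seed storage genes higher, in every library labelled GmRAV1-ox.

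Markers of other organs and tissues gave no call by edgeR in any list, and DESeq2 called 2 vascular markers lower. Without GmRAV1-ox replicate 3, edgeR called 3 vascular markers higher and 5 lower, 3 meristem markers higher and 3 lower, 2 root nodule markers higher and 1 lower, and 1 floral marker higher. Meristem markers summed to between 357 and 455 FPKM in the libraries labelled GmRAV1-ox and between 311 and 458 FPKM in the DN50 libraries, with 1 of 14 tested higher and 1 lower at an unadjusted p under 0.05. In the floral list 1 of 6 tested was higher and 0 lower at that p. In the vascular list it was 1 higher and 6 lower of 35 tested, and in the root nodule list 1 and 1 of 10 tested. Floral organ markers summed to between 63.5 and 118 FPKM in the libraries labelled GmRAV1-ox and between 58.5 and 76.7 FPKM in the DN50 libraries, and vascular markers to between 92.7 and 238 FPKM in the libraries labelled GmRAV1-ox and between 149 and 208 FPKM in the DN50 libraries. Root nodule markers summed to between 1451 and 2077 FPKM in the libraries labelled GmRAV1-ox and between 1453 and 2169 FPKM in the DN50 libraries. The part of these tissues, and of GmRAV1-ox replicate 3, in the values of the storage protein pair was not tested.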

How the data were processed

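RNA was taken from trifoliolate leaves with Trizol and made into Illumina TruSeq libraries, per the labels' protocols; the kit named does not mark strand. The authors deposited, per the file headers, an expected count and an FPKM value for each gene of each library. TopHat and Cufflinks are named in the submitters' processing notes; no source used here gives their versions, the build or the counter. Gene lengths in the files are all multiples of 3 and so are coding lengths.

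Counts were rounded and tested with edgeR 4.0.16 in R 4.3.3 (quasi-likelihood, robust, TMM scaling, filterByExpr), with Benjamini-Hochberg adjustment over 26272 genes and a threshold of 0.05. CPM use TMM scaling, and log2 CPM a prior count of 2. Levels compared between genes are FPKM. Library totals ran from 7208496 to 7684540 counts. Single values were compared by exact permutation, two-sided. Poisson intervals cover counting error only.

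Alternatives were other scalings and filters, DESeq2 1.42.0, limma 3.58.1 on log2(FPKM + 1) or log2(FPKM + 0.1), each library left out, and a replicate block. Steps were checked on simulated data. RefSeq accessions, matched without version, named 80% of genes. Gene lists were made by matching deposited descriptions, and the genes named are the pair, tested relatives, up to 4 called genes of a list (otherwise its most abundant gene, not always shown) and those most like the pair; exceptions are marked. The members and lists were chosen with earlier results of these data known.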

Additional observations from a re-analysis of the deposited data

How the results depend on the processing

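Over 16 alternatives the log2 fold change of Glyma07g01730.1 passed the adjusted threshold with DESeq2 (4.47) and with a replicate block (4.43, adjusted p = 0.0116). That of Glyma08g21410.1 passed with DESeq2 (4.52), with the replicate block (4.26, adjusted p = 0.0174) and without GmRAV1-ox replicate 3 (4.97). With 1 library left out, the values ranged from 3.67 to 6.15 and from 3.83 to 5.0, the summed CPM of the pair from 3.61 to 5.65, and the log2 ratio of the members from -0.29, without DN50 replicate 3, to 0.91; with FPKM + 1 that ratio was 1.00. Genes called higher and lower were 32 and 152; they were 84 and 149 without scaling factors, 62 and 231 without a filter, 17 higher at a mean FPKM of at least 1, 658 and 1040 with DESeq2, 64 higher with limma on log2(FPKM + 1), 89 lower with limma on log2(FPKM + 0.1), and 682 and 939 with the replicate block. With 1 library left out they ranged from 0 to 2383 higher and from 0 to 2672 lower; the highest counts were without GmRAV1-ox replicate 3, and there were none without GmRAV1-ox replicate 1 or 2 or DN50 replicate 1 or 3, where edgeR gave 1865, 1446, 1774 and 1750 higher and 2023, 1844, 2004 and 1759 lower at an unadjusted p under 0.05. Without scaling the median of all genes was 0.20, against 0.01, and lower genes made up 63.9% of calls, against 82.6%. The replicate block also called 2 vascular markers lower and 1 meristem marker higher. Whether replicate numbers pair the samples is not known. Same-numbered libraries deviated from their group means with r of -0.30, 0.40 and 0.30, and libraries with different numbers with r of -0.50 to 0.37. These values cannot decide it, since the deviations of 3 libraries from their own mean depend on each other. Near-zero changes turned sign for Glyma08g24840.1 (0.14 without scaling, 0.00 with upper-quartile factors, 0.14 and 0.15 with limma, -0.16 to 0.07 with 1 library left out) and for Glyma08g21420.1 (0.06 without scaling, 0.03 and 0.03 with limma, -0.50 to 0.11 with 1 library left out). There were 961 gene and list values outside the main comparisons, those of these 2 genes included. Of them 787 kept direction and call, 34 lost the call, 42 gained it and 86 were counts that moved by over 1.5 times. The 12 that turned sign were all values of Glyma08g24840.1 and Glyma08g21420.1. The causes were not tested. Depth limits Glyma08g21410.1 in DN50 libraries.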
